A study of Mus musculus with 12 samples.

Results

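Cytosolic ribosomes, which translate messenger RNA into protein, are built from ribosomal RNA and a large set of ribosomal proteins. Rpl genes encode proteins of the large subunit, which joins amino acids, and Rps genes encode proteins of the small subunit, which reads the messenger RNA. Their transcripts are among the most abundant of a growing cell, and they carry a terminal oligopyrimidine (TOP) tract, a run of C and T letters at the very start of the RNA through which the kinase mTOR and the RNA-binding protein LARP1 set their translation. Some of these proteins also have roles outside the ribosome. RPL5 and RPL11 bind MDM2, the ligase that removes p53, when ribosome assembly is disturbed.

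The genes described here were all those that the platform annotation of the array names Rpl or Rps followed by a number, together with Rplp0, Rplp2 and Rpsa, where a probe set had that gene as its single symbol. The rule found 100 of the 22690 probe sets, which stand for 48 genes, 26 of the large and 22 of the small subunit. Of these, 47 genes (25 large and 22 small) and 86 probe sets passed a filter on low signal and were tested, out of 7945 genes tested in all. Rpl3l, a muscle relative of Rpl3, did not pass it, with group means of 5.467 to 29.83. Among the 48 genes, 6 are named as like another ribosomal protein gene (Rpl3l, Rpl7l1, Rpl22l1, Rpl39l, Rps4l and Rps27l). A further 95 probe sets are annotated both to a ribosomal protein gene and to its pseudogenes or provisional gene models, so they fall outside the rule, and 25 genes are measured by such probe sets alone.

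Primary MEFs, fibroblasts of mouse embryos taken at day 13.5 and used at passage 2, gave the RNA. They were wildtype or lacked the retinoblastoma gene (Rb null, Rb-/-). Cells of each genotype were untreated or had received 16 µM cisplatin, a platinum drug that crosslinks DNA, for 24 h. The 4 groups are therefore untreated wildtype, untreated Rb null, cisplatin-treated wildtype and cisplatin-treated Rb null cells, each with 3 Affymetrix arrays made from 6 µg of total RNA, and no transgene or further allele is named. The series' design text describes 4 RNA samples that were each hybridized in triplicate. Each group may thus be a single RNA sample, the SD and the p-values then hold only the spread between hybridizations, and the tests compare these 4 RNA samples rather than cultures or embryos.

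Several facts of the whole series bear on all that follows. Rb1 had a signal of 459.7 ± 35.4 (SD, n = 3) and 382.9 ± 60.1 on untreated and cisplatin-treated wildtype arrays, and of 93.97 ± 9.99 and 89.63 ± 14.5 on the corresponding Rb null arrays; whether its probe set lies in the deleted part is not known. The Y-linked Eif2s3y was at 478.1 ± 7.9 on untreated wildtype arrays and at group means of 1.267 to 6.633 elsewhere, so comparisons that use the untreated wildtype group also set RNA with Y-linked transcripts against RNA without them. Log2 signals of arrays of a group correlated at 0.981 to 0.992 across probe sets (12 pairs), and arrays of different groups at 0.806 to 0.952 (54 pairs). The cells carried fibroblast markers, with a summed signal over 11 of 11 markers of 64250 to 67390 in untreated wildtype, 64340 to 66820 in untreated Rb null, 57300 to 59720 in cisplatin-treated wildtype and 44270 to 44970 in cisplatin-treated Rb null cells. Macrophage and leukocyte markers, 17 of 17 measured, summed to 6060 to 6438, 8072 to 8499, 12380 to 12930 and 6274 to 6551 in the same order. In RNA from a whole culture, fewer cells of a type and less RNA per cell cannot be told apart. The part of these marker differences in the results on ribosomal protein genes was not tested.

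The starts of several members are printed here because the tract at the start is the feature these genes are known to share. Each line holds 40 bases before and 14 after a start annotated in RefSeq on GRCm38.p6, read 5′ to 3′ along the gene. Capitals mark a C followed by at least 4 pyrimidines (C or T), where that C lies within 5 bases of that start. The run of C and T can begin before the capitals, as in Rpl35, Rplp2 and Rpl22l1. In Rpl35 it begins before the window of 5 bases, and such runs are counted below. Rpl35, Rps10 and Rplp2 are abundant members, each with such a tract. Of the 42 members matched to a promoter 20 held one, and abundant members such as Rpl4 and Rplp0 did not. Rps6 stands for a member called after cisplatin, and Rpl22 and Rpl22l1 for a pair of paralogs that moved in opposite directions. Rps25 and Rps27l stand for members higher after cisplatin in both genotypes.
Rpl35, chr2:39005118-39005171, minus strand: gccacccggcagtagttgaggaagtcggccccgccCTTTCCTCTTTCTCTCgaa
Rps10, chr17:27635231-27635284, minus strand: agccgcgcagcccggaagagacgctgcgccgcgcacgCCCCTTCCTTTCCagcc
Rplp2, chr7:141447611-141447664, plus strand: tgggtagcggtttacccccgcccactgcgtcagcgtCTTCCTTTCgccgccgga
Rps6, chr4:86857354-86857407, minus strand: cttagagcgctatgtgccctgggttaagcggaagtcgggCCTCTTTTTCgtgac
Rpl22, chr4:152324396-152324449, plus strand, the upstream of its annotated starts: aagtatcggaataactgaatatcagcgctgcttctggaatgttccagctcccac
Rpl22l1, chr3:28805468-28805521, plus strand: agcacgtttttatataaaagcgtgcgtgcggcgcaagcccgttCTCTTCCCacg
Rps25, chr9:44407674-44407727, plus strand: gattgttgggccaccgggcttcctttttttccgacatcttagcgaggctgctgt
Rps27l, chr9:66946046-66946099, plus strand, the upstream of its annotated starts: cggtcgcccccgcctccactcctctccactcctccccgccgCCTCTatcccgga

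RefSeq promoters, 250 bases before to 50 after a start, were matched by symbol for 42 of the 48 members, with 50 starts. Such a tract was found at 42.0% of the 50 member starts and at 18.3% of all 32851 starts in the same table. The letters CCGGAAG, a site of ETS factors, were found on either strand in 42.0% of member promoters and in 8.86% of all. GGGCGG (SP1) was in 52.0% of member promoters and 35.7% of all, CACGTG (E-box) in 10.0% and 7.15%, and TATAAA in 12.0% and 13.6%. Of the E2F letters, TTTCGCGC was in 1 of the 50 member promoters (2.0%), that of Rpsa, against 0.323% of all. TTTGGCGC was in 0.0% against 0.514%. The YY1 motif was in 0.0% against 0.633%. A match describes these letters in this window and shows no binding, and an annotated start can lie some bases away from the start the cell uses. Over the 20 tested members with a tract in this window the median log2 difference between cisplatin-treated and untreated Rb null cells was 0.29. Over the 21 with a promoter but no tract there it was 0.28. Those 21 can still carry a tract at the start the cell uses, so this split cannot show what the tract does.

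In Rb null cells most ribosomal protein genes were higher with cisplatin than without, by a small and similar amount. Over the 47 tested members the median log2 difference was 0.299, a 1.23-fold higher level, against -0.0171 over all 7945 genes tested. By limma with Benjamini-Hochberg adjustment over all tests of the comparison, 36 members were higher and 2 lower at an adjusted p under 0.05, where 31.3% and 34.3% of all genes were. For 38 members all 3 treated arrays lay above all 3 untreated ones, which held for 33.5% of all genes. Most of these differences were under the 1.5-fold minimum of a call: 4 members were called higher and 1 lower, where 16.6% and 20.3% of all genes were called.

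The scale of the arrays bears on this shift. The deposited signals have nearly the same trimmed mean on each array. Under quantile normalization, which forces the same distribution on every array, the median over the members was 0.11 (all genes 0.0319), and 17 members were higher and 4 lower at adjusted p, where 33.0% and 31.9% of all genes were, so the share that were higher was near that of all genes. When each array was centred on its median log2 value, the median over the members was 0.445 and that over all genes moved to 0.129. With this centring 41 members were higher at adjusted p, where 39.3% of all genes were. The members thus lay above all genes by 0.316 on the deposited scale and by 0.078 under quantile normalization. Median centring moves every gene of an array alike, so it could not change this distance (0.316).

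Both subunits took part in this difference to a like degree. The median log2 difference was 0.285 over the 25 large subunit genes and 0.306 over the 22 small subunit genes. At adjusted p 18 large and 18 small subunit genes were higher, and 1 of each was lower. The acidic stalk protein gene Rplp2, whose product helps to recruit translation factors, had signals of 10420, 10090 and 9880 on untreated Rb null arrays and of 12280, 12550 and 12220 on treated ones (log2 0.29 ± 0.053 SE, adjusted p = 0.000246). Rps14, whose protein lies in the platform of the small subunit, was at 9522, 9234 and 9343 and then at 11630, 12210 and 11450 (log2 0.33 ± 0.043, adjusted p = 1.04e-05). Rpsa, which encodes the small subunit protein also known as laminin receptor, was at 10230, 9898 and 9813 and then at 11970, 11750 and 11740 (log2 0.24 ± 0.056, adjusted p = 0.00153). In each of these 3 genes every treated array lay above every untreated one, and each difference was below 1.5-fold. Rps4x, a small subunit gene of the X chromosome, showed the same order at 8818, 8543 and 9308 against 10360, 11260 and 10870 (log2 0.28 ± 0.052, adjusted p = 0.000215).

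Not every member passed as higher at adjusted p. Rps19, the gene most often mutated in Diamond-Blackfan anaemia, had 7524, 7808 and 7337 on untreated and 8357, 9969 and 7893 on treated Rb null arrays. Its arrays did not overlap, but its log2 difference of 0.20 ± 0.089 did not pass (adjusted p = 0.0578). Rpl10a, a large subunit gene, was at 8708, 7909 and 8326 and then at 7772, 8627 and 7415 (log2 -0.069 ± 0.081, adjusted p = 0.476), so its arrays overlapped. Rpl39 (log2 0.21 ± 0.15) and Rpl7l1 (0.088 ± 0.088) did not pass either.

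**Figure D1:**
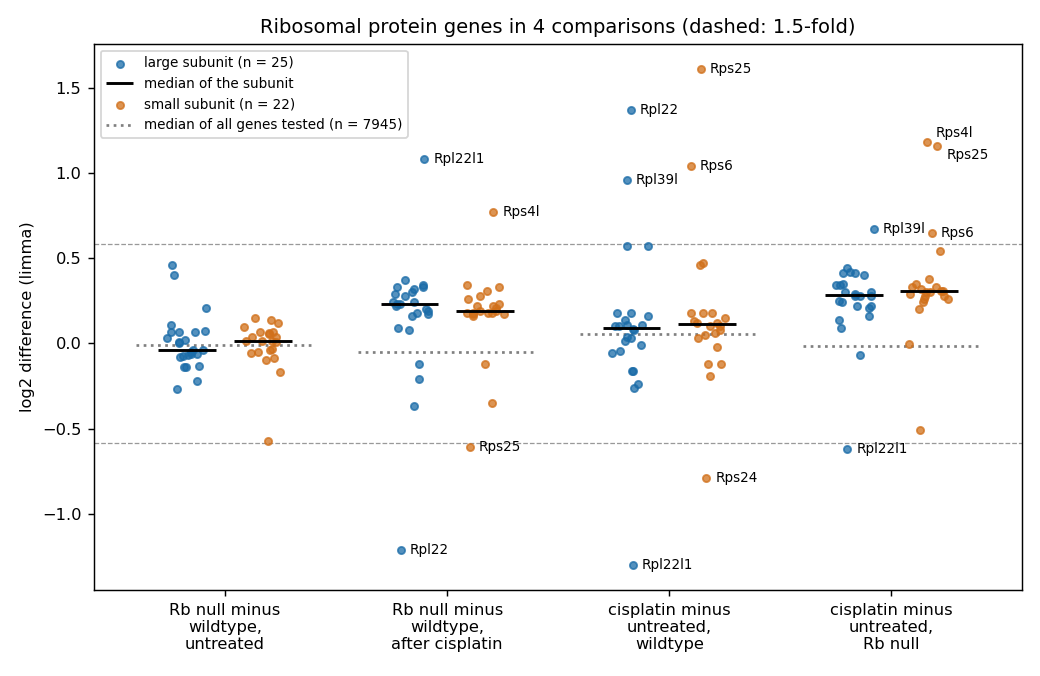
Log2 difference of each tested ribosomal protein gene (points, 25 large subunit genes in blue and 22 small subunit genes in orange) in 4 comparisons, with the median of each subunit (black bars), the median of all 7945 genes tested (dotted) and the 1.5-fold limits (dashed); called genes are named. The medians of both subunits lie near 0 in untreated cells and at 0.285 and 0.306 for cisplatin in Rb null cells.

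With cisplatin, ribosomal protein genes were also higher in Rb null than in wildtype cells. The median over the 47 members was 0.214 on the log2 scale, a 1.16-fold higher level, against -0.0512 over all genes. At adjusted p 36 members were higher and 3 lower, where 22.9% and 30.2% of all genes were, and for 37 members all Rb null arrays lay above all wildtype arrays, which held for 26.8% of all genes. Of these, 2 members were called higher and 2 lower at the 1.5-fold minimum (all genes 9.67% and 13.3%). Large subunit genes had a median of 0.228 and small subunit genes one of 0.191, with 17 of 25 and 19 of 22 higher at adjusted p.

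This comparison shares the cisplatin-treated Rb null arrays with the one above, so both rest on the same 3 arrays. Rplp2 had signals of 10980, 11140 and 10890 on treated wildtype arrays, below all 3 treated Rb null arrays given above (log2 0.17 ± 0.053, adjusted p = 0.0162). Rps14 was at 10180, 10430 and 10370 (log2 0.19 ± 0.043, adjusted p = 0.00226). Rpl7, a large subunit gene, was at 6253, 7268 and 8188 in treated wildtype and at 8808, 9060 and 9227 in treated Rb null cells (log2 0.33 ± 0.094, adjusted p = 0.00959). Rpl12, whose protein lies at the base of the stalk, was at 415.6, 379 and 343.3 against 514.5, 467.9 and 497.8 (log2 0.37 ± 0.089, adjusted p = 0.0028). None of these 4 pairs of groups overlapped. The only probe set of Rpl12 under the rule is weak, and whether it measures the main transcript was not tested. Under quantile normalization the median over the members was 0.0353 against -0.0237 over all genes. At adjusted p 10 members were then higher and 3 lower, where 23.8% and 28.0% of all genes were. The share that were higher was thus near that of all genes. With median centring the median was 0.282 against 0.0169, with 37 higher and 3 lower (all genes 26.6% and 24.8%).

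Without cisplatin the members did not differ between the genotypes as a body. The median log2 difference between Rb null and wildtype cells was 0.00747 over the members and -0.00934 over all genes. By limma 0 members were called in either direction, where 8.07% of all genes were called higher and 5.08% lower. An unadjusted limma p under 0.05 was found for 6 of the 47 members and for 3500 of all 7945 genes. At adjusted p alone 2 members were higher, Rpl22l1 (log2 0.40 ± 0.099, adjusted p = 0.00566) and Rps27l (0.15 ± 0.057, adjusted p = 0.0496), and 0 were lower, where 18.7% and 16.8% of all genes were. Arrays of the genotypes did not overlap, with Rb null higher, in 6 members and in 24.3% of all genes. Large subunit genes had a median of -0.0406 and small subunit genes one of 0.0126.

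The lowest value of this comparison was that of Rps27, a small subunit gene, with 432.4, 405.8 and 767.5 in wildtype and 340.4, 392.2 and 298.6 in Rb null cells. Its log2 difference of -0.57 ± 0.23 did not pass (adjusted p = 0.0671), and wildtype array 3 stood well above the other two. Without the untreated wildtype array numbered 2 the log2 value was -0.737 (adjusted p = 0.0366) and the gene was called. The highest was that of Rpl27a, a large subunit gene with a weak probe set, at 94.1, 113.7 and 109.1 against 131, 140.3 and 180 (log2 0.46 ± 0.18, adjusted p = 0.057).

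In wildtype cells fewer members were higher with cisplatin on the deposited scale. The median log2 difference between treated and untreated wildtype cells was 0.0987, a 1.07-fold higher level, against 0.0565 over all genes. At adjusted p 16 members were higher and 4 lower, where 32.0% and 24.5% of all genes were. The share of members that were higher, 34.0%, was near that of all genes, and the share that were lower, 8.51%, was below it. In 15 members all treated arrays lay above all untreated ones (34.9% of all genes). Called were 4 members as higher and 2 as lower (all genes 14.8% and 12.7%). Large subunit genes had a median of 0.0873 and small subunit genes one of 0.112. Leaving out the untreated wildtype array numbered 2, on which the members were lowest, left 10 members higher at adjusted p (29.4% of all genes) and a median of 0.0526. Under quantile normalization the median was 0.0968 with 17 members higher and 4 lower (all genes 31.9% and 25.2%). This was close to the 0.11 with 17 and 4 in Rb null cells under that scaling. A smaller response in wildtype cells was thus seen on the deposited scale but not under quantile normalization. With median centring the medians were 0.143 and 0.445. That centring cannot change how far the members lie from all genes, so it is no separate check.

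The difference between the 2 responses to cisplatin was tested as an interaction. Its median over the members was 0.191 on the log2 scale, positive where the response was larger in Rb null cells, against -0.0748 over all genes. At adjusted p 22 members were higher and 3 lower, where 15.2% and 24.1% of all genes were, and 3 were called higher and 1 lower (all genes 8.7% and 15.0%). Without cisplatin-treated Rb null array b 13 members were higher (13.7% of all genes). Without untreated Rb null array 3 there were 14 (13.6% of all genes). Under quantile normalization the median over the members was -0.0146 (all genes -0.0316), so its sign changed. At adjusted p 6 members were then higher and 4 lower, where 16.7% and 21.5% of all genes were. With median centring the median was 0.292 (all genes 0.0267), with 25 higher and 2 lower (all genes 19.0% and 17.5%).

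Array by array, the large and the small subunit moved together. For each array the median over the genes of a subunit was taken of the log2 signal minus the mean of the gene over the 12 arrays. For large subunit genes it was -0.09 ± 0.05 on untreated wildtype arrays and -0.1 ± 0.034 on untreated Rb null ones. Treated wildtype arrays gave -0.019 ± 0.015, and treated Rb null arrays 0.18 ± 0.016. For small subunit genes it was -0.097 ± 0.068, -0.11 ± 0.0096, -0.0081 ± 0.032 and 0.2 ± 0.027. The large minus the small subunit gave 0.0074 ± 0.019, 0.0039 ± 0.044, -0.011 ± 0.024 and -0.023 ± 0.014 in the same order. These 4 group means lie within a range that is close to the pooled SD between arrays of a group, 0.027. Over all members, the 3 cisplatin-treated Rb null arrays lay at 0.175, 0.217 and 0.183, above each of the other 9 arrays, which ran from -0.154 to 0.0148.

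**Figure D2:**
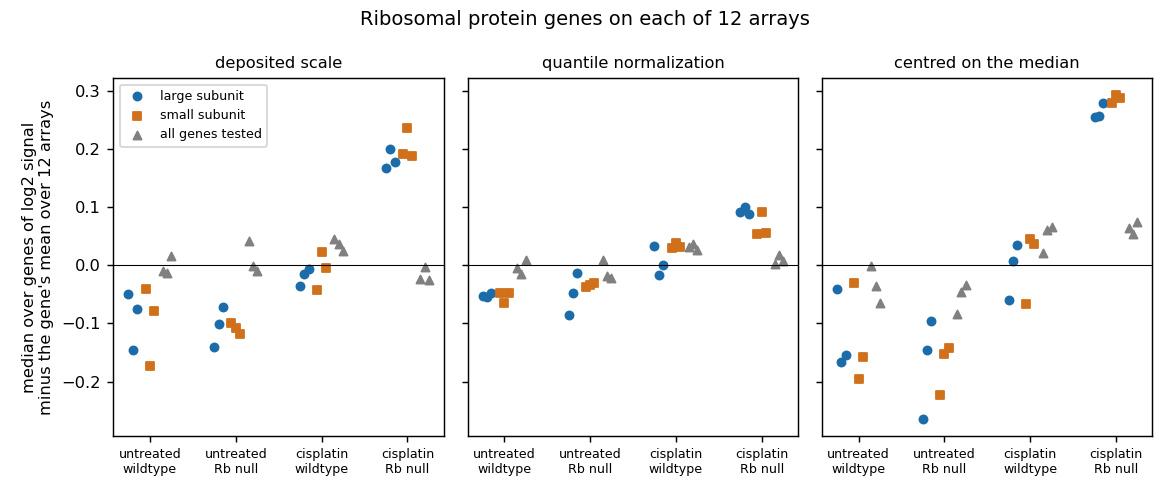
Median over genes of the log2 signal minus the mean of each gene over the 12 arrays, for the 25 large subunit genes, the 22 small subunit genes and all 7945 genes tested, each point being 1 of the 3 arrays of a group, on the deposited scale, after quantile normalization and after centring on the median. On the deposited scale the members of cisplatin-treated Rb null arrays lie at 0.175 to 0.217, and quantile normalization brings them to 0.056 to 0.0986.

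Most members are strongly expressed. A mean signal over 5000 was found for 33 members, and in Rb null cells 30 of them were higher with cisplatin at adjusted p, 0 were lower and 0 reached a call (log2 -0.0686 to 0.536). The 177 other genes over 5000 had a median of 0.0647, with 73 higher and 52 lower at adjusted p. Over the 33 strong members the median was 0.299 in that comparison, 0.214 for genotype after cisplatin, 0.0873 for cisplatin in wildtype cells and 0.00619 for genotype without cisplatin. The 14 weaker members, with a median of 0.283 for cisplatin in Rb null cells, held all calls in the 5 comparisons other than that of Rpl11 in the interaction.

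Rpl22 and its paralog Rpl22l1 differed most among the large subunit genes and in opposite directions. RPL22 is a ribosomal protein of the large subunit that cells can do without, RPL22L1 can take its place, and RPL22 is known to bind the Rpl22l1 transcript and hold its level down. Rpl22 had signals of 2367, 1953 and 1974 in wildtype and 1833, 1686 and 2190 in Rb null cells without the drug. With cisplatin the values were 6747, 6647 and 3537 in wildtype and 2524, 2345 and 2160 in Rb null cells. The 3 treated wildtype arrays were above all others, although array c was well below the other two. Cisplatin raised it in wildtype cells (log2 1.37 ± 0.19, adjusted p = 2.55e-05), while in Rb null cells its difference of 0.30 ± 0.19 did not pass (adjusted p = 0.175). After cisplatin it was lower in Rb null than in wildtype cells (log2 -1.21 ± 0.19, adjusted p = 0.000108), and the responses differed (log2 -1.06 ± 0.27, adjusted p = 0.00626).

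Rpl22l1 was highest in untreated Rb null cells, at 2651, 2979 and 3205, against 2389, 1915 and 2383 in untreated wildtype cells. After cisplatin it was at 962.1, 878.1 and 852.6 in wildtype and at 1739, 2042 and 1964 in Rb null cells. It fell with cisplatin in both genotypes (wildtype log2 -1.30 ± 0.099, adjusted p = 5.17e-08; Rb null -0.62 ± 0.099, adjusted p = 7.07e-05), and fell less in Rb null cells (log2 0.68 ± 0.14, adjusted p = 0.00164). After cisplatin it was higher in Rb null cells (log2 1.08 ± 0.099, adjusted p = 7.15e-07). The call in Rb null cells ended without untreated Rb null array 3 (log2 -0.554), without treated Rb null array a (-0.549) and under median centring (-0.471). The other probe set of Rpl22 was much weaker and did not show these differences: its group means were 408.1 ± 56.7, 478.7 ± 27.8, 376.6 ± 85.9 and 380.6 ± 45.7, and its log2 value for cisplatin in wildtype cells was -0.13 ± 0.15 (adjusted p = 0.502). The pattern of Rpl22 thus rests on 1 probe set.

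Rps27l, whose transcription p53 is known to activate, was higher after cisplatin in both genotypes on all 3 of its probe sets. The probe set that stands for it gave 5947, 5989 and 6193 on untreated wildtype arrays and 6457, 7016 and 6706 on untreated Rb null ones. Treated wildtype arrays gave 8236, 8088 and 8688, and treated Rb null arrays 10520, 9152 and 9629. Treated and untreated arrays did not overlap in either genotype. The log2 differences of 0.46 ± 0.057 (adjusted p = 7.52e-06) and 0.54 ± 0.057 (adjusted p = 1.12e-06) were below 1.5-fold, and the interaction of 0.073 ± 0.080 did not pass (adjusted p = 0.511). Its other probe sets carry the suffix that marks possible cross-hybridization. They gave 0.40 ± 0.087 and 0.37 ± 0.048 in wildtype and 0.35 ± 0.087 and 0.50 ± 0.048 in Rb null cells. Whether they measure Rps27l alone was not tested. Under median centring the Rb null value was 0.681 and passed as a call. Its relative Rps27 had log2 values of -0.19 ± 0.23 and 0.26 ± 0.23, neither of which passed. The only probe set of Rps27 under the rule is far weaker, with group means of 343.7 to 535.2. Whether it measures the main transcript of Rps27 was not tested.

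Rps25, a small subunit gene whose protein is needed by some internal ribosome entry sites, showed the largest rise among the probe sets that stand for the members. It had signals of 428, 486.1 and 516 in untreated wildtype and 468.7, 395.2 and 406.2 in untreated Rb null cells. With cisplatin these became 1488, 1466 and 1450 in wildtype and 930.7, 954.4 and 987.5 in Rb null cells, and neither pair of groups overlapped. The rise was 3.04-fold in wildtype (log2 1.61 ± 0.086, adjusted p = 1.24e-09) and 2.24-fold in Rb null cells (log2 1.16 ± 0.086, adjusted p = 2.62e-08). After cisplatin it was lower in Rb null cells (log2 -0.61 ± 0.086, adjusted p = 4.29e-05), which under median centring was -0.543 and no longer a call. This is its only probe set under the rule. Its signals lay far below the 5000 that 33 members exceeded, and whether it measures the main transcript of Rps25 was not tested.

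Rps4l, a relative of Rps4x, rose with cisplatin in Rb null cells. It was at 828.6, 782.8 and 588.1 in wildtype and 767, 746.2 and 761.6 in Rb null cells without the drug. With cisplatin the values were 1043, 885.5 and 1114 in wildtype and 1563, 1898 and 1743 in Rb null cells. All 3 treated Rb null arrays were above all other arrays. The log2 difference with cisplatin was 1.18 ± 0.12 in Rb null cells (adjusted p = 7.79e-07) and 0.47 ± 0.12 in wildtype cells (adjusted p = 0.00416, below 1.5-fold). The responses differed (log2 0.71 ± 0.17, adjusted p = 0.00477), and after cisplatin Rps4l was higher in Rb null cells (log2 0.77 ± 0.12, adjusted p = 0.000105).

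Rpl39l and Rps6 rose with cisplatin in both genotypes from low signals. Rpl39l, a relative of Rpl39 best known from the testis, had 213.1, 298.7 and 201.4 in untreated wildtype and 624, 418.2 and 383.2 in treated wildtype cells (log2 0.96 ± 0.19, adjusted p = 0.000663). In Rb null cells it had 311.3, 215.4 and 223.8 untreated and 448.5, 376.4 and 378.7 treated (log2 0.67 ± 0.19, adjusted p = 0.00646). Its relative Rpl39 did not pass in either genotype (log2 0.11 ± 0.15 and 0.21 ± 0.15). The only probe set of Rpl39 under the rule is weak too, with group means of 420.5 to 532.3. Whether it measures the main transcript of Rpl39 was not tested. Rps6, whose protein is the substrate of the S6 kinases that act downstream of mTOR, was at 203.9, 212.9 and 308.9 and then at 469.5, 465.1 and 566.3 in wildtype cells (log2 1.04 ± 0.19, adjusted p = 0.0004). In Rb null cells it was at 336.2, 203.9 and 211.4 and then at 473.1, 365.9 and 339.3 (log2 0.65 ± 0.19, adjusted p = 0.009). The groups did not overlap in either gene, but in Rb null cells the highest untreated array was close to the lowest treated one.

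Both Rb null calls rest on single arrays. That of Rpl39l ended without untreated Rb null array 2 (log2 0.58, adjusted p = 0.0306). That of Rps6 ended without untreated Rb null array 2 (0.526), without untreated Rb null array 3 (0.551) and without treated Rb null array a (0.512). With these and the changes of Rpl22l1, the 5 calls in Rb null cells became 3 without any one of those 3 arrays. A second, weaker probe set of Rps6 was under the filter, with group means of 36.27 ± 7.15, 32.97 ± 2.84, 80.6 ± 9.44 and 44.37 ± 15.8. Both probe sets of Rps6 lay far below the 5000 that 33 members exceeded. Whether they measure its main transcript was not tested.

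Rpl11 is an abundant large subunit gene whose interaction was called. Its direction was that of the body, with log2 0.44 ± 0.13 for cisplatin in Rb null cells and 0.34 ± 0.13 for genotype after cisplatin. Rpl11, whose protein can bind MDM2, was at 7393, 6100 and 6146 on untreated wildtype arrays and 4108, 6439 and 5966 on untreated Rb null ones. Treated wildtype arrays gave 5927, 5748 and 5779, and treated Rb null arrays 6950, 7766 and 7333. Its response to cisplatin differed between the genotypes (log2 0.61 ± 0.18, adjusted p = 0.0158). This call rested on single arrays: without untreated Rb null array 1, the lowest of all, the value was 0.408 (adjusted p = 0.0105), without untreated wildtype array 1 it was 0.515 and without treated Rb null array b 0.565. Under quantile normalization it was 0.425 (adjusted p = 0.0536).

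Rplp0, which encodes the core of the ribosomal stalk and is often used as a reference gene, was lower in Rb null than in wildtype cells after cisplatin, against the direction of the body. It had 8396, 7305 and 7530 in wildtype and 6878, 7244 and 7840 in Rb null cells without the drug. With cisplatin the values were 11570, 11800 and 11170 in wildtype and 9063, 9223 and 8452 in Rb null cells. Treated arrays lay above untreated ones in both genotypes. The log2 differences were 0.57 ± 0.063 in wildtype (adjusted p = 2.34e-06) and 0.28 ± 0.063 in Rb null cells (adjusted p = 0.00108), and -0.37 ± 0.063 for genotype after cisplatin (adjusted p = 0.00021), all below 1.5-fold. With median centring the wildtype value was 0.618 and a call.

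**Figure D3:**
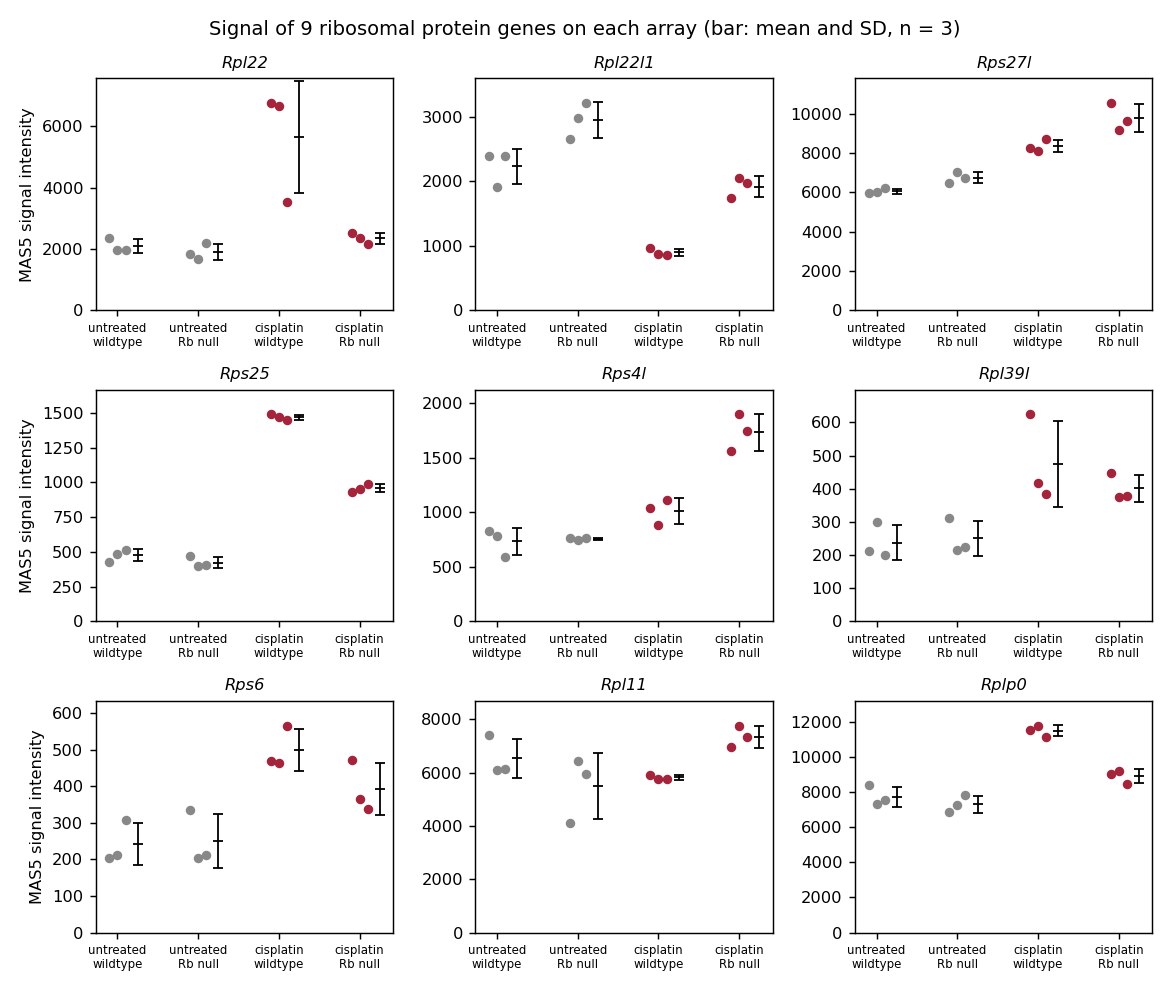
Deposited signal (linear scale from 0) of 9 ribosomal protein genes on each of the 12 arrays, untreated in grey and cisplatin-treated in red, with the mean and SD of the 3 arrays of a group. Rpl22 is highest in cisplatin-treated wildtype cells (5644 ± 1830), where Rpl22l1 is lowest (897.6 ± 57.3), and Rps4l is highest in cisplatin-treated Rb null cells (1735 ± 168).

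Where a gene had several probe sets they mostly gave like values, with some exceptions. Of the 48 members 23 have more than 1 probe set, and counted by probe set, 67 of 86 were higher and 2 lower at adjusted p for cisplatin in Rb null cells. Rps24, a small subunit gene, was called lower in wildtype cells on the probe set that stands for it, at 340.9, 404.6 and 397.3 and then at 215.2, 189.6 and 246.5 (log2 -0.79 ± 0.11, adjusted p = 3.38e-05). In Rb null cells it was at -0.51 ± 0.11 (adjusted p = 0.00104, below 1.5-fold). Its 4 other tested probe sets, which are far brighter and carry the suffix that marks possible cross-hybridization, lay between -0.07 ± 0.12 and 0.23 ± 0.063 in wildtype cells and between 0.28 ± 0.063 and 0.47 ± 0.12 in Rb null cells. With the brightest probe set in its place the wildtype value was 0.125 (adjusted p = 0.0731), so the direction of Rps24 depends on the probe set.

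The next 2 genes were singled out after their values were seen. For Rps9, 1 probe set with that suffix stood at 239.7, 187.7 and 336.1 on untreated wildtype arrays and 347.1, 186.5 and 151.9 on untreated Rb null ones. Treated wildtype arrays gave 3938, 3026 and 3116, and treated Rb null arrays 291.3, 234.8 and 274.2. The probe set that stands for Rps9 was at group means of 7582 ± 268, 7933 ± 396, 6976 ± 358 and 7901 ± 353 and did not pass for cisplatin in wildtype cells (log2 -0.12 ± 0.056, adjusted p = 0.0842), where the former gave 3.7 ± 0.25. What the former probe set detected was not tested. For Rpl37a, a probe set with that suffix gave 1.31 ± 0.13 for cisplatin in Rb null cells, against 0.42 ± 0.053 on the probe set that stands for the gene and 0.32 ± 0.060 on the remaining one.

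**Figure D4:**
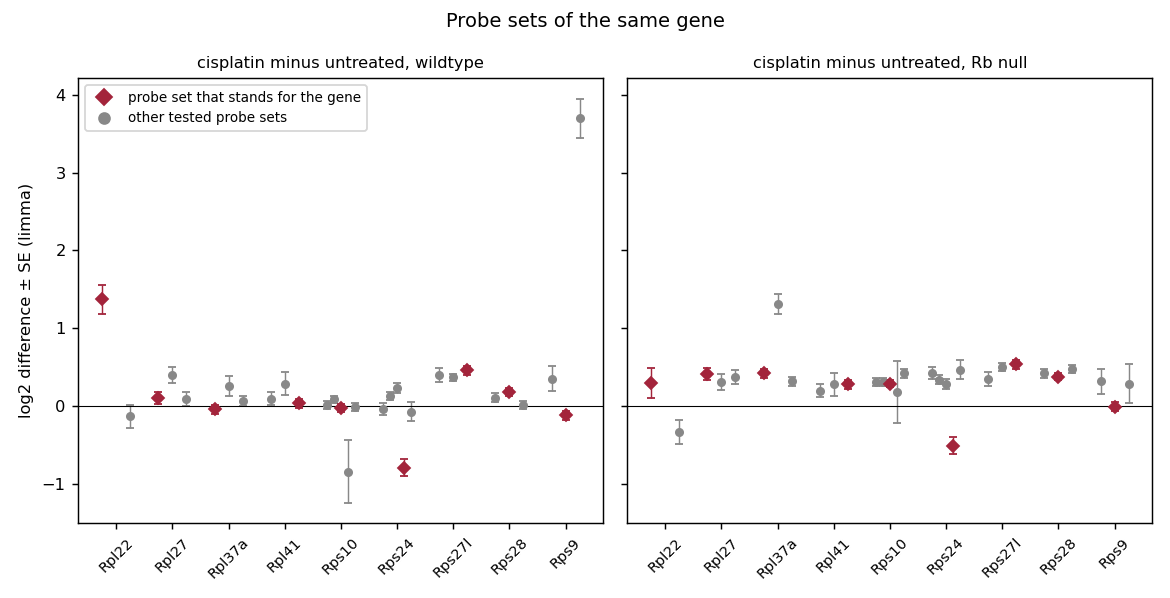
Log2 difference ± SE with cisplatin in wildtype and in Rb null cells for each tested probe set of 9 genes with several probe sets; diamonds mark the probe set that stands for the gene and circles the others. Probe sets of Rps27l lie together, while 1 of Rps9 (3.7 in wildtype), 1 of Rpl37a (1.31 in Rb null) and that of Rps24 (-0.79 in wildtype) lie apart from the others of their gene.

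Other genes of translation were mixed. On a list of 21 translation factors and other mRNAs known to start with a TOP tract, 18 were tested, and their medians were 0.0692 for genotype without cisplatin, 0.144 for genotype after cisplatin, 0.0718 for cisplatin in wildtype cells, 0.123 for cisplatin in Rb null cells and 0.026 for the interaction. At adjusted p 7 of the 18 were higher and 1 lower for cisplatin in Rb null cells (all genes 31.3% and 34.3%), and 9 and 1 for genotype after cisplatin (all genes 22.9% and 30.2%). The elongation factor gene Eef1a1 had a log2 difference of 0.30 ± 0.055 with cisplatin in Rb null cells (adjusted p = 0.000257) and Tpt1, which encodes a calcium-binding growth protein, one of 0.33 ± 0.056 (adjusted p = 0.000121), both below 1.5-fold. These are among the 7 that were higher there. The 1 that was lower was Eif3h (log2 -0.28 ± 0.073, adjusted p = 0.00348), while Eef2 (0.041 ± 0.052) and Npm1 (-0.025 ± 0.048) did not pass. Called members were the helicase gene Eif4a2 (log2 0.59 ± 0.071 with cisplatin in Rb null cells, adjusted p = 4.51e-06) and the splicing factor gene Hnrnpa1 (1.02 ± 0.15 for genotype after cisplatin, adjusted p = 8.16e-05). These 2 and the noncoding RNA Gas5 (log2 0.59 ± 0.13, adjusted p = 0.00303) were called higher in the interaction, with 0 lower (all genes 8.7% and 15.0%). At adjusted p 6 of the list were higher and 3 lower in the interaction (all genes 15.2% and 24.1%), the latter being Nap1l1 (log2 -0.40 ± 0.072), Eif3h (-0.43 ± 0.10) and Eif4b (-0.34 ± 0.11). Fau, which encodes the small subunit protein RPS30 behind a ubiquitin-like part, did not pass for cisplatin in Rb null cells (log2 0.16).

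Of 18 listed genes that regulate the translation of TOP mRNAs, 13 were tested. With cisplatin 2 were called higher and 3 lower in Rb null cells (all genes 16.6% and 20.3%) and 2 and 1 in wildtype cells (all genes 14.8% and 12.7%), and 2 and 2 for genotype after cisplatin (all genes 9.67% and 13.3%). These counts are near the shares over all genes. Mtor itself was at 600.1 ± 57.1 in wildtype and 503.4 ± 64.4 in Rb null cells without the drug. With cisplatin the values were 407.9 ± 51.2 in wildtype and 206.3 ± 31.4 in Rb null cells, a fall in Rb null cells of log2 -1.25 ± 0.13 (adjusted p = 1.02e-06). Larp1 also fell in Rb null cells (log2 -0.82 ± 0.066, adjusted p = 5.84e-08), as did the S6 kinase gene Rps6kb2 (-1.49 ± 0.32, adjusted p = 0.000803). Rps6kb2 was weak, at 176.9 ± 18.3 untreated and a scattered 65.5 ± 47.1 treated. With cisplatin in wildtype cells Mtor (log2 -0.55 ± 0.13, adjusted p = 0.00257) and Larp1 (-0.41 ± 0.066, adjusted p = 9.78e-05) were lower too, both below 1.5-fold. Rps6kb2 did not pass in wildtype cells (-0.63 ± 0.32, adjusted p = 0.103). Ddit4 and Sesn1, stress genes that hold mTOR complex 1 down, rose in Rb null cells by log2 1.54 ± 0.090 (adjusted p = 1.94e-09) and 0.89 ± 0.10 (adjusted p = 3.3e-06). In wildtype cells Ddit4 (log2 0.80 ± 0.090) and Sesn2 (0.93 ± 0.12) rose and Eif4ebp1, whose protein binds the cap-binding factor, fell (-0.63 ± 0.081).

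Chaperones of single ribosomal proteins, 7 tested of 8, held 2 called higher and 1 lower with cisplatin in Rb null cells (all genes 16.6% and 20.3%) and 1 higher and 0 lower in wildtype cells (all genes 14.8% and 12.7%), which for so few genes is near those shares. Tsr2, whose protein escorts RPS26, was at 187.5 ± 25.1 and 306.7 ± 15.6 in untreated and treated wildtype cells (log2 0.69 ± 0.11, adjusted p = 0.000124). Its Rb null means were 238.1 ± 23.9 and 548.2 ± 21.8 (log2 1.17 ± 0.11, adjusted p = 4.03e-07). Pdcd2, which serves RPS2, rose in Rb null cells (log2 0.76 ± 0.092) and Bccip, which serves RPL23, fell (-0.74 ± 0.16). Mdm2, the partner of RPL11, rose with cisplatin in wildtype (log2 1.18 ± 0.11, adjusted p = 6.54e-07) and in Rb null cells (1.05 ± 0.11, adjusted p = 1.45e-06).

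Markers of other cells and the control probe sets also differed between the groups, in part in another order than the members. The summed macrophage signals given above were highest in cisplatin-treated wildtype cells, and the summed fibroblast signals lowest in cisplatin-treated Rb null cells. With cisplatin in wildtype cells 6 of 14 tested macrophage markers were called higher and 0 lower (all genes 14.8% and 12.7%). Of 11 fibroblast markers 4 were called higher and 4 lower. In Rb null cells 2 of the macrophage markers were called higher and 10 lower (all genes 16.6% and 20.3%). Of the fibroblast markers 0 were called higher and 5 lower there. For genotype after cisplatin the counts were 0 and 11 for macrophage and 0 and 7 for fibroblast markers (all genes 9.67% and 13.3%). Of the other markers measured, 2 of 6 for epithelium, 1 of 4 for endothelium, 2 of 4 for skeletal muscle, 3 of 4 for neural and 0 of 2 for erythroid cells passed the filter on low signal. With cisplatin in Rb null cells 1 of the 2 epithelial markers was called higher, 1 of the 2 muscle markers lower, 1 neural marker higher and 1 lower, and 0 endothelial markers in either direction. The 3' control probe set for 18S rRNA, the RNA of the small subunit, had 105.7 ± 14.5 on untreated wildtype arrays and 110.3 ± 10.4 on untreated Rb null ones. Treated wildtype arrays gave 213.5 ± 29.2, and treated Rb null arrays 383 ± 91.7, so it too was highest where the members were. The ratio of the 3' to the 5' control of Gapdh was 0.79 ± 0.0096, 0.767 ± 0.0086, 0.817 ± 0.044 and 0.846 ± 0.043. The part of these differences in the shift of the ribosomal protein genes was not tested.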

How the data were processed

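Signals of 12 Affymetrix arrays, 3 per group, were used. They were made with MAS5 per the submitters' processing notes and were deposited as linear signal intensity per probe set; the software version, scaling target and detection calls are not given in the sources used here. The 2% trimmed means of the arrays were 500.1 to 500.2, so the deposited scale was kept. Signals were turned into log2(signal + 10.4), the 10th percentile, which understates changes of weak genes. Leaving out 64 control probe sets and then the 40% of lowest mean left 13575 probe sets. Each gene was represented by 1 probe set, without suffixes of cross-hybridization where another existed, then by the highest mean (7945 genes). A model with a mean for each group took in the 12 arrays together (limma 3.58.1, R 4.3.3; lmFit and eBayes with trend; 8 residual and 6.09 prior degrees of freedom; two-sided). Called means a Benjamini-Hochberg adjusted p under 0.05 and at least 1.5-fold; log2 values are given ± SE and signals ± SD, n = 3. "Rose" and "fell" are used of called genes, and "higher at adjusted p" where the fold minimum was not applied.

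Named are members called in any comparison, the 3 highest and 3 lowest of each, paralogs with their parents, a few listed members, and called genes of the related lists. Outside this rule, Eef1a1, Tpt1, Eef2, Npm1, Nap1l1, Eif3h and Eif4b are named from the related lists though not called. Members, lists and tests were chosen with earlier results of these data known, so no list was tested as a set and no p was adjusted over a list. Of the listed members, Rpl5, Rpl23, Rpl26, Rplp1 and Rps27a have no probe set under the rule and are not analysed here. The platform annotation gives a single symbol for 20393 probe sets and several for 691; its symbols can be old. The fit was tested on simulated data. Alternatives were other pseudocounts, filters, scalings, fold minimums, groups in the fit, probe sets per gene, a replicate block, and leaving out each array. The number of arrays limits the precision. Chosen after the data were seen were the alternatives without the 6 genes named as like another and with probe sets shared with pseudogenes.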

Additional observations from a re-analysis of the deposited data

Results flagged for a closer look

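For 4 member genes, 3 higher and 1 lower, the interaction term of limma was called at the 1.5-fold minimum, where 8.7% and 15.0% of all genes were called; at adjusted p alone 22 members were higher and 3 lower (all genes 15.2% and 24.1%). The response in Rb null minus that in wildtype cells was log2 -1.06 ± 0.27 for Rpl22, 0.68 ± 0.14 for Rpl22l1, 0.71 ± 0.17 for Rps4l and 0.61 ± 0.18 for Rpl11. Rpl22 was raised in wildtype cells, with group means of 2098 untreated and 5644 treated, against 1903 and 2343 in Rb null cells. Rpl22l1 went from 2229 to 897.6 in wildtype and from 2945 to 1915 in Rb null cells. Rps4l went from 733.2 to 1014 and from 758.3 to 1735. Rpl11 went from 6546 to 5818 and from 5504 to 7350; its value without untreated Rb null array 1 was 0.408. Each of these comparisons uses the untreated wildtype arrays, whose sex-linked transcripts differ from those of the other groups, and how far this bears on them was not tested.

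The 3' control probe set for 18S rRNA, which no comparison of genes used, was above its untreated level after cisplatin. Its mean signal was 213.5 in cisplatin-treated wildtype cells against 105.7 in untreated ones, and 383 in cisplatin-treated Rb null cells against 110.3.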

How the results depend on the processing

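Under the alternatives, 2600 values of named members kept their side of the threshold, 77 became calls, 23 ceased to be calls and 1 reversed: Rps24 for cisplatin in wildtype cells, 0.125 with the brightest probe set whatever its suffix. Comparisons are given in the order genotype untreated (1), genotype after cisplatin (2), cisplatin in wildtype (3), cisplatin in Rb null cells (4) and interaction (5). The cause of the changes was not tested, except where fewer or more genes or arrays, or another fold minimum, make them.

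Counts called, 0, 4, 6, 5 and 4, became 2, 39, 20, 38 and 25 without a fold minimum, 1, 17, 11, 31 and 17 at 1.2-fold, and 2, 2 and 1 at 2-fold in (2), (4) and (5). Under quantile normalization and median centring (1) became 1. Without the genes named as like another, (2), (4) and (5) became 2, and with probe sets shared with pseudogenes (4) became 3.

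Counts higher at adjusted p, 2, 36, 16, 36 and 22, became 4, 10, 17, 17 and 6 under quantile normalization (all genes 17.7%, 23.8%, 31.9%, 33.0% and 16.7%). By probe set (2), (4) and (5) became 61, 67 and 40, out of 86. With probe sets shared with pseudogenes (4) became 59 (31.4% of all genes). Without the variance trend (3) became 9 and (5) 11, and without the filter on low signal (1) became 1 and (5) 13. With median centring, with only the 2 groups compared, and with the brightest probe set, (1) became 1, and without the genes named as like another 0. Same-numbered arrays did not deviate together (correlations of -0.186 to 0.109), so the numbers do not pair the arrays; with a replicate block (1) became 1 and (2) 35, with a median of 0.214 and 4 calls in (2).

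Medians over the members under quantile normalization were 0.0353 in (2), 0.11 in (4) and -0.0146 in (5), and under median centring -0.0258, 0.282, 0.143, 0.445 and 0.292. The large minus the small subunit under quantile normalization was -0.00306 in (1), -0.0609 in (3), 0.029 in (4) and 0.0597 in (5). In (1) it was -0.00659 by probe set and -0.0238 with the brightest probe set, and in (2) -0.0126 with shared probe sets.

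Leaving out 1 array at a time gave 0 to 1, 4 to 4, 6 to 7, 3 to 5 and 3 to 5 calls, and 1 to 3, 27 to 36, 10 to 18, 35 to 38 and 13 to 22 members higher at adjusted p. Medians ran from -0.0342 to 0.00747, 0.195 to 0.22, 0.0526 to 0.11, 0.281 to 0.306 and 0.173 to 0.231. The large minus the small subunit ran from -0.0612 to -0.000597, 0.0101 to 0.0374, -0.0802 to -0.0107, -0.0539 to -0.015 and -0.0183 to 0.0307. The alternatives without like genes and with shared probe sets were chosen after seeing the data. Signals near background limit what Rpl27a, Rpl3l and the weaker probe sets can show.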

Other observations

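Probe sets that the annotation gives to a ribosomal protein gene and otherwise only to its pseudogenes or provisional models lie outside the rule, and adding them raised the number of genes to 72. With them the median log2 difference was 0.0081 for genotype without cisplatin, 0.221 for genotype after cisplatin, 0.0781 for cisplatin in wildtype cells and 0.29 for cisplatin in Rb null cells. At adjusted p 54 genes were higher and 4 lower for genotype after cisplatin (all genes 23.1% and 30.2%). For cisplatin in Rb null cells 59 were higher and 3 lower (all genes 31.4% and 34.2%). This set was not fitted under quantile normalization.

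Members with and without a tract within 5 bases of an annotated start, 20 and 21 genes, had medians of 0.22 and 0.19 for genotype after cisplatin. For cisplatin in wildtype cells the medians were 0.056 and 0.11. Members without a match can still carry a tract at the start the cell uses, so the split cannot show what the tract does.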
